A study of Mus musculus with 4 samples.

Results

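The immediate early response genes are a set of 10 human genes, FOS, FOSB, JUN, JUNB, EGR1, ATF3, IER2, DUSP1, ZFP36 and NR4A1, out of the 36601 genes in the deposited count tables. They were chosen by name, each as the single row with that symbol in the feature lists of both tables. Human CD45+ cells were sorted from tumors of MDA-MB-231, a human triple-negative breast cancer cell line, grown in MISTRG mice. These mice lack lymphocytes of their own, carry human cytokine genes in place of the mouse ones and were engrafted with human hematopoietic stem cells. Of 14 mice, 7 were untreated and 7 received the drug maraviroc with the drinking water (300 mg per l), started on day 21 after tumor injection, until tumors were removed on day 31. Each mouse was marked by a hashtag antibody, and the cells were run in 2 droplet reactions, with 4 untreated and 3 maraviroc mice in reaction 1 and 3 untreated and 4 maraviroc mice in reaction 2.

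Immediate early genes are transcribed within minutes of a stimulus, without new protein synthesis, when kinase cascades such as the ERK, JNK and p38 pathways activate factors already present in the cell. Many encode transcription factors, and others encode inhibitors that end the response. In leukocytes they follow antigen receptor, cytokine and pattern recognition signals, and they are also known to rise when tissue is dissociated with enzymes at body temperature, as was done here before sorting. The part of the dissociation in these levels was not tested.

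Cells were placed in 5 classes by UMIs of marker genes, none of which is one of the 10 genes. The classes held 3277 T cells, 1149 NK cells, 460 dendritic cells, 2717 monocytes and 2893 macrophages, 10496 of 19817 kept cells. The share of kept cells in a class was 41.6% in reaction 1 and 70.1% in reaction 2, and the median barcode held 2764 and 10204.5 UMIs. Every mouse gave at least 13 cells of each class. Genes outside the gates were checked for 4 classes, and none was held out for monocytes. CD6, a T cell surface receptor, was at 102 CPM in T cells and at 22.3 CPM or lower in the other classes, KLRC1, an NK cell receptor, was highest in NK cells at 799.8 CPM, HLA-DRA was highest in dendritic cells at 7198 CPM, and SPP1 was highest in macrophages at 14315 CPM. Markers were mixed in places: dendritic cells held the monocyte genes S100A9 at 2339 CPM and VCAN at 1455 CPM, against 8217 and 4197 CPM in monocytes, beside 235 CPM of the dendritic gene CD1C. NK cells held the T cell gene CD3D at 164 CPM, against 838 CPM in T cells and 10.2 CPM or lower in the myeloid classes. They also held the macrophage genes SPP1 at 779 CPM and C1QA at 68.6 CPM, against 194 and 29.7 CPM in T cells. SPP1 in NK cells was at 1478 CPM in reaction 1 and at 143 CPM in reaction 2. The part of these in the comparisons of dendritic cells with monocytes, of T with NK cells, of lymphoid with myeloid classes and of the reactions in NK cells was not tested. The reactions shared 136 barcodes by their letters.

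The set was mainly a myeloid one. Averaged over the 3 myeloid classes and compared with the average of T and NK cells, 8 of the 10 genes were higher, IER2 was lower and JUN did not pass the test. Across all 10413 genes tested, 83.7% were called in this comparison, 41.8% higher and 41.9% lower, so a call by itself is common. The median log2 difference of the 10 genes was 1.52, while the median over all genes was -0.01 and the median absolute difference 0.63. Calls are adjusted p under 0.05 by edgeR's quasi-likelihood test with Benjamini-Hochberg adjustment over all genes, on counts summed over the cells of a class in a mouse, with the mouse as a term. Levels are scaled CPM, the counts of a sum relative to its TMM-scaled library size, given as the lowest, median and highest of 14 mice.

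**Figure D1:**
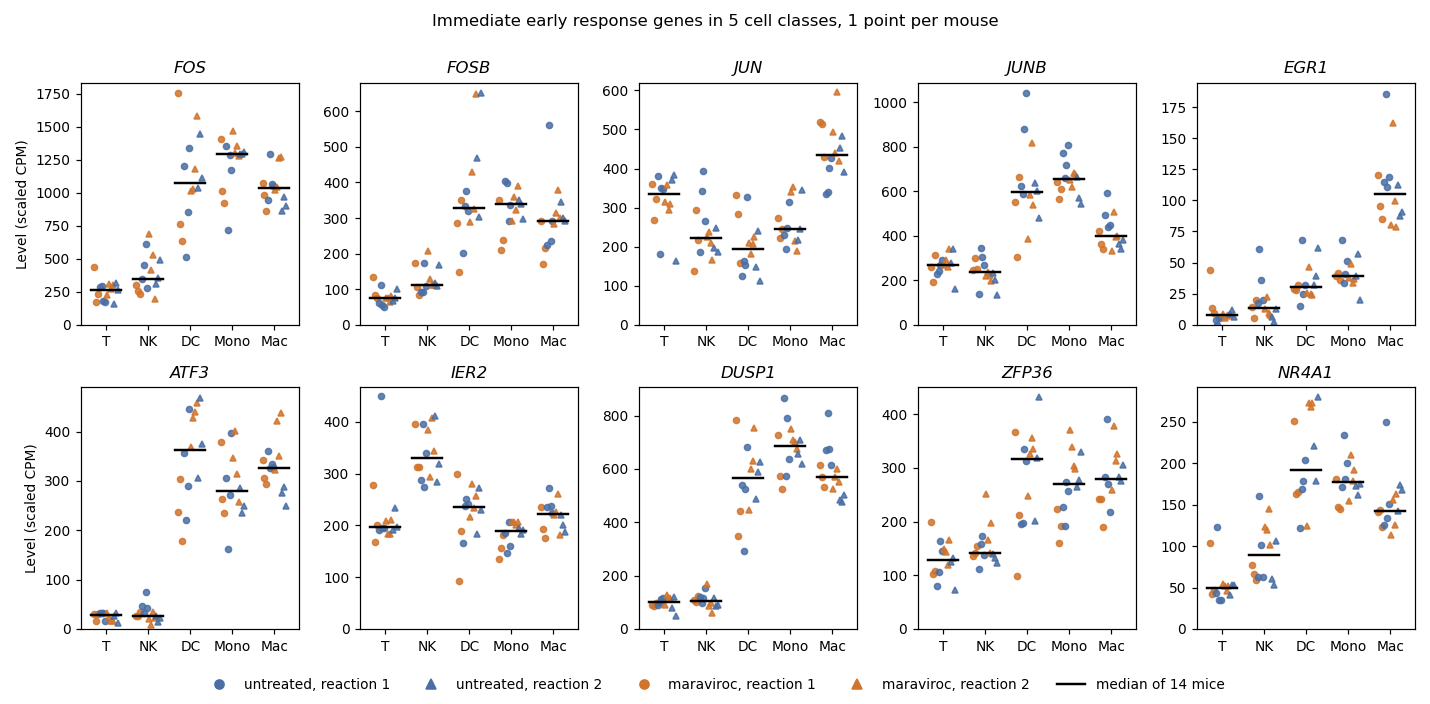
Level of each gene in scaled CPM (linear axis from 0) in T cells (T), NK cells (NK), dendritic cells (DC), monocytes (Mono) and macrophages (Mac), with 1 point per mouse, colour for treatment, shape for reaction and a bar at the median. ATF3 and DUSP1 were low in every T and NK sample and high in every myeloid sample, while IER2 was highest in NK cells with a median of 329.6 CPM.

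The FOS and JUN families make up AP-1, a dimer that binds DNA as FOS with JUN partners. FOS was at 719, 1294 and 1466 CPM in monocytes, at 514, 1075 and 1754 CPM in dendritic cells and at 859, 1034 and 1290.3 CPM in macrophages. It was at 197, 349 and 688 CPM in NK cells and at 160.2, 265 and 436 CPM in T cells. All 14 macrophage samples lay above every NK and T cell sample. Neighbouring myeloid classes were not called apart in FOS, with adjusted p = 0.7 for monocytes and dendritic cells and 0.352 for dendritic cells and macrophages by edgeR. Monocytes against macrophages did not pass either, though FOS was higher in monocytes in 13 of 14 mice. NK cells held 1.62 times the FOS of T cells (log2 difference of T minus NK cells -0.70, SE 0.14, adjusted p = 6.81e-05), and the level was higher in NK cells in 11 of 14 mice.

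FOSB, a FOS relative with the same JUN partners, kept this order in its medians over all mice. These were 339 CPM in monocytes, 329 CPM in dendritic cells, 293 CPM in macrophages, 112 CPM in NK cells and 75.4 CPM in T cells. The fit gave a log2 difference of monocytes minus dendritic cells of -0.23 (SE 0.13, adjusted p = 0.154 by edgeR). Monocytes were higher in 7 of 14 mice. Unlike FOS, FOSB was called higher in dendritic cells than in macrophages (0.39, SE 0.13, adjusted p = 0.00745 by edgeR). The ranges of the 3 myeloid classes, from 149 to 651 CPM, 211 to 404 CPM and 171 to 561 CPM for dendritic cells, monocytes and macrophages, all lay above the highest T cell value of 133 CPM.

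JUN did not follow FOS. It was highest in macrophages at 334, 435 and 596 CPM and next in T cells at 162, 335 and 383 CPM. Monocytes at 188, 244 and 352 CPM, NK cells at 137, 222 and 392 CPM and dendritic cells at 113, 194 and 333 CPM followed. Macrophages exceeded T cells in 13 of 14 mice (log2 difference of T cells minus macrophages -0.46, SE 0.12, adjusted p = 0.000286), and T cells exceeded monocytes in 11 of 14 (0.32, SE 0.12, adjusted p = 0.0114). Monocytes were not called apart from NK cells, though higher in 10 of 14 mice, nor NK from dendritic cells, though NK cells were higher in 11. The average of the myeloid classes was 0.02 above that of the lymphoid ones on the log2 scale, with SE 0.08 and adjusted p = 0.808. The sign of that difference turned with the scaling, to -0.05 with RLE size factors and to -0.29 without scaling factors, where it passed (adjusted p = 0.000492). The median of all genes was then -0.32.

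JUNB, a JUN relative that can replace it in the dimer, returned to the myeloid pattern but was lower in macrophages. It was at 544, 655 and 809 CPM in monocytes, 304, 595 and 1044 CPM in dendritic cells and 333, 398 and 591 CPM in macrophages, against 159, 268 and 341 CPM in T cells and 136, 235 and 344 CPM in NK cells. Monocytes exceeded macrophages 1.59 times (log2 difference 0.66, SE 0.09, adjusted p = 1.17e-08), the opposite of JUN, for which macrophages exceeded monocytes 1.71 times (-0.77, SE 0.12, adjusted p = 3.38e-08). JUN and JUNB thus stood in opposite order in these related classes.

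ATF3, a bZIP factor that can pair with JUN and is known to restrain inflammatory genes, gave the widest gap of the set. It was at 177, 362 and 468 CPM in dendritic cells, 249, 327 and 437 CPM in macrophages and 163, 279 and 400.5 CPM in monocytes. In T cells it had a median of 28.2 CPM and reached 33.1 CPM, in NK cells it was at 7.46, 26.1 and 75.6 CPM, so no lymphoid sample reached a myeloid one. The myeloid average was 11.6 times the lymphoid one (log2 difference 3.54, SE 0.11, adjusted p = 2.01e-39). ATF3 was at 38.8 CPM in reaction 1 and 49.5 CPM in reaction 2, unscaled, in barcodes with at most 600 genes, which were left out as cells. The medians in T and NK cells were below these values. Free RNA was not measured, and those barcodes, with medians of 1558.5 and 1453.5 UMIs, may include cells, so the fold rests on a low lymphoid level whose source was not tested.

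EGR1, a zinc finger factor of macrophage differentiation and lymphocyte activation, was a macrophage gene here. It was at 78.9, 105 and 185 CPM in macrophages, and the highest values elsewhere were 68.3 CPM in monocytes, 67.8 CPM in dendritic cells, 61.2 CPM in NK cells and 43.8 CPM in T cells. Macrophages exceeded monocytes 2.52 times (log2 difference of monocytes minus macrophages -1.34, SE 0.15, adjusted p = 9.02e-12) and did so in 14 of 14 mice. Monocytes and dendritic cells, with medians of 39.3 and 30.3 CPM, were not called apart (adjusted p = 0.374 by edgeR). EGR1 was higher in monocytes in 12 of 14 mice. The T cell median of 7.70 CPM lay below the unscaled 19.4 and 11.1 CPM in the barcodes of at most 600 genes.

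NR4A1, the orphan nuclear receptor Nur77, a common reporter of antigen receptor signals, was at 121, 191 and 279.9 CPM in dendritic cells, 145, 177 and 234 CPM in monocytes and 113, 143 and 249.7 CPM in macrophages. It was at 52.9, 88.8 and 160.4 CPM in NK cells and was lowest in T cells at 34.7, 49.5 and 123 CPM. All 4 steps in this order passed the test. The smallest was that between monocytes and macrophages, with a log2 difference of 0.26, SE 0.11 and adjusted p = 0.0311, and it did not pass with RLE size factors (0.19, adjusted p = 0.121). The step from dendritic cells to monocytes had the highest adjusted p, 0.0406 by edgeR (log2 difference 0.29, SE 0.11). It held in 10 of 14 mice. Median NR4A1 was 169 CPM in dendritic cells and 181 CPM in monocytes in reaction 1, and 268 and 175 CPM in reaction 2. NK cells exceeded T cells 1.89 times and in 13 of 14 mice (log2 difference of T minus NK cells -0.92, SE 0.13, adjusted p = 6.74e-08).

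**Figure D2:**
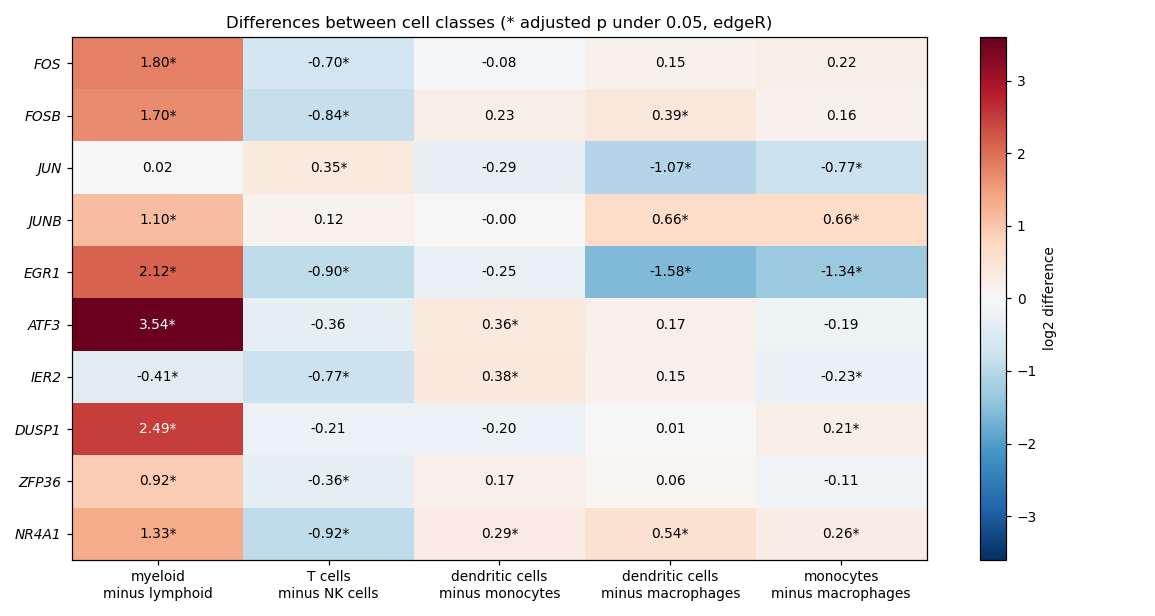
Log2 differences between cell classes for each gene, fitted over 70 sums of 14 mice, with an asterisk where the adjusted p was under 0.05 (edgeR). The first column is red for 8 genes, with ATF3 at 3.54 and DUSP1 at 2.49, while IER2 is at -0.41, and JUN and JUNB take opposite colours between monocytes and macrophages, at -0.77 and 0.66.

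IER2, a nuclear protein of early growth responses, was highest in NK cells. It was at 274, 329.6 and 411 CPM in NK cells, above every monocyte sample (136, 189 and 207 CPM) and every macrophage sample (176, 222 and 272 CPM). Dendritic cells were at 91.9, 236 and 299.6 CPM and T cells at 169, 196 and 449.8 CPM. NK cells exceeded dendritic cells in 14 of 14 mice (log2 difference of NK minus dendritic cells 0.62, SE 0.10, adjusted p = 2.76e-07) and T cells 1.70 times. T cells were not called apart from macrophages (adjusted p = 0.953 by edgeR) or dendritic cells (0.165). The highest T cell value came from a sum of 23 cells, and the next highest in T cells was 279 CPM. IER2 was the single gene of the set called lower in the myeloid average (log2 difference -0.41, SE 0.06, adjusted p = 2.46e-08), and it was lower too with RLE size factors (-0.48) and without scaling (-0.72).

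DUSP1 and ZFP36, which limit the response, were higher in myeloid cells. DUSP1, a phosphatase that switches off p38 and JNK, was at 523, 687 and 866 CPM in monocytes, 477, 571 and 808 CPM in macrophages and 294, 565 and 783 CPM in dendritic cells. In NK cells it was at 61.1, 103 and 168 CPM and in T cells it had a median of 101 CPM and a highest value of 126 CPM, so the lymphoid and myeloid samples did not overlap. The myeloid average was 5.62 times the lymphoid one (log2 difference 2.49, SE 0.07, adjusted p = 2.49e-39). NK and T cells were not called apart (adjusted p = 0.176 by edgeR), nor were macrophages and dendritic cells (adjusted p = 0.94).

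ZFP36, which encodes tristetraprolin and destabilises cytokine mRNAs, had the smallest excess among the 8 genes higher in myeloid cells. It was at 99, 316 and 433 CPM in dendritic cells, 189.6, 279 and 391 CPM in macrophages and 161, 269 and 370.3 CPM in monocytes, against 111, 142 and 252 CPM in NK cells and 71.8, 128 and 199 CPM in T cells. The myeloid average was 1.90 times the lymphoid one (log2 difference 0.92, SE 0.07, adjusted p = 7.2e-18), and the ranges overlapped. The 3 myeloid classes were not called apart from each other.

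Between T and NK cells, 6 of the 10 genes were lower in T cells, JUN was higher and 3 did not pass the test, where 28.4% of all genes were called. In reaction 1 by itself, IER2 was the single gene called. EGR1 did not pass without untreated mouse 2 of reaction 1 (-0.71), nor JUN without maraviroc mouse 1 of reaction 1 (0.29). Between monocytes and macrophages, JUNB, NR4A1 and DUSP1 were higher in monocytes and EGR1, JUN and IER2 higher in macrophages, where 62.4% of all genes were called. DUSP1 passed narrowly (log2 difference 0.21, SE 0.10, adjusted p = 0.0487) and did not pass with RLE size factors (0.15, adjusted p = 0.178). Between dendritic cells and monocytes, ATF3, IER2 and NR4A1 were higher in dendritic cells and 7 genes did not pass, where 37% of all genes were called. Mean ATF3 was 290 CPM in dendritic cells and 287 CPM in monocytes in reaction 1, and 406 and 298 CPM in reaction 2. Mean NR4A1 was 179 and 180 CPM in reaction 1, and 231 and 178 CPM in reaction 2. Mean IER2 was higher in dendritic cells in both, at 211 and 168 CPM and at 239 and 199 CPM. Between dendritic cells and macrophages, FOSB, JUNB and NR4A1 were higher in dendritic cells and JUN and EGR1 in macrophages, where 58.3% of all genes were called. Mean FOSB was 288 CPM in dendritic cells and 285 CPM in macrophages in reaction 1, and 445 and 316 CPM in reaction 2. Means of JUNB and NR4A1 were higher in dendritic cells in both reactions.

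The 6 comparisons of a lymphoid with a myeloid class gave the same picture. T cells were lower for 8 genes and higher for 1 against dendritic cells (72.9% of all genes called), lower for 8 and higher for 2, JUN and IER2, against monocytes (80.8%) and lower for 9 against macrophages (80.2%). NK cells were lower for 8 genes and higher for 1 against dendritic cells (68.7%), lower for 8 and higher for 1 against monocytes (75.8%) and lower for 9 and higher for 1 against macrophages (75.1%). IER2 was the gene higher in NK cells each time.

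Related genes of fixed lists were compared in the same fit. Of 9 tested AP-1 and bZIP genes, 6 were higher and 2 lower in myeloid cells, with JDP2, a repressor of AP-1, at a log2 difference of 4.28 (SE 0.17) and BATF, a T cell AP-1 partner, at -1.91 (SE 0.12). All 9 zinc finger and nuclear receptor genes were called, 8 higher and 1 lower, with KLF4, a factor of monocyte differentiation, at 4.70 (SE 0.15) and NR4A3 at 1.83 (SE 0.10). Of 16 feedback genes, 10 were higher and 6 lower, with DUSP6, an ERK phosphatase, at 3.62 (SE 0.10) and SOCS3, an inhibitor of cytokine receptors, at 2.69 (SE 0.10). The list medians were 0.59, 1.21 and 0.39, beside 1.52 for the 10 genes. Of 10 upstream kinases and factors, 6 were higher and 2 lower with a median of 0.28, and MAP2K1, the kinase above ERK, was at 1.97 (SE 0.08).

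Of 10 heat shock genes, which are also known to rise during dissociation, 9 were higher in myeloid cells and none lower, with a median log2 difference of 1.16 and HSPA1A at 1.28 (SE 0.09). Their summed level had a median over mice of 2554 CPM in T cells, 2067 CPM in NK cells, 3327 CPM in dendritic cells, 3807 CPM in monocytes and 4703 CPM in macrophages. The mitochondrial share, another value that moves with cell state, was 2.50%, 2.51%, 3.53%, 2.86% and 3.85% in the same order. The part of either in the higher myeloid levels of the 10 genes was not tested.

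The cells themselves gave the same division at equal depth. After each cell was thinned to 1000 UMIs, which left out 120 cells of reaction 1 and 3 of reaction 2, a T cell held UMIs of 1.31 ± 0.22 (SD, n = 14) of the 10 genes, an NK cell of 1.70 ± 0.27 and a dendritic cell of 2.33 ± 0.34. Monocytes were at 2.42 ± 0.15 and macrophages at 2.44 ± 0.18. Without thinning these means were 4.25, 4.35, 7.23, 6.23 and 6.43. At 1000 UMIs, FOS had a UMI in 19.4% of T cells, 27.7% of NK cells, 47.3% of dendritic cells, 51.0% of monocytes and 48.1% of macrophages, and without thinning in 51.9%, 61.1%, 85.6%, 85.5% and 83.7%. None of these classes is known to lack the set, so no share here serves as a background for free RNA. In barcodes of at most 600 genes the 10 genes together were at 547 CPM in reaction 1 and 539 CPM in reaction 2, against 2984 and 2871 CPM in the cells of the 5 classes.

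Maraviroc was compared with no treatment in each class, with the reaction as a term of the fit. None of the 10 genes was called in T cells, dendritic cells, monocytes or macrophages, and none of the 9 tested in NK cells, where EGR1 was below the filter on low counts. Over all genes, 0% were called in T cells, NK cells, monocytes and macrophages and 0.0334% in dendritic cells. At unadjusted p under 0.05 by edgeR, 2 of 49 gene and class combinations passed, JUN in macrophages and ZFP36 in NK cells, while 4.93%, 3.23%, 7.09%, 3.4% and 3.63% of all genes did in T cells, NK cells, dendritic cells, monocytes and macrophages. The treated and untreated groups overlapped for every one of the 10 genes in each class, beside 0.0485%, 0.0639%, 0.0836%, 0.0208% and 0.0192% of all genes without overlap. DESeq2 called none of the 10 genes either. Median log2 differences of the set were 0.15 in T cells, 0.08 in NK cells, -0.03 in dendritic cells, -0.03 in monocytes and -0.07 in macrophages.

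FOS showed how wide the intervals were. In monocytes it was at 719, 1293 and 1354 CPM in untreated mice (lowest, median and highest of 7) and at 919.6, 1304 and 1466 CPM in maraviroc mice. The groups overlapped over most of their range, and the log2 difference was 0.04 with an approximate 95% interval from -0.18 to 0.26. Its sign turned without untreated mouse 2 or maraviroc mouse 1 of reaction 1, to -0.03 and -0.04. In macrophages the interval was -0.10 to 0.32, in T cells -0.20 to 0.65, in NK cells -0.65 to 0.26 and in dendritic cells -0.35 to 0.54. These data do not separate the differences that lie inside these intervals from 0.

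JUN in macrophages was at 334, 402 and 483 CPM in untreated and at 419, 493 and 596 CPM in maraviroc mice. The log2 difference was 0.27 (SE 0.10, unadjusted p = 0.0171 by edgeR, adjusted p near 1), and the groups overlapped. ZFP36 in NK cells was at 111, 138 and 173 CPM in untreated and at 135, 155 and 252 CPM in maraviroc mice, a log2 difference of 0.30 (SE 0.14, unadjusted p = 0.0409 by edgeR, adjusted p near 1). By reaction the ZFP36 difference was 0.03 (SE 0.19) in reaction 1 and 0.55 (SE 0.18) in reaction 2.

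**Figure D3:**
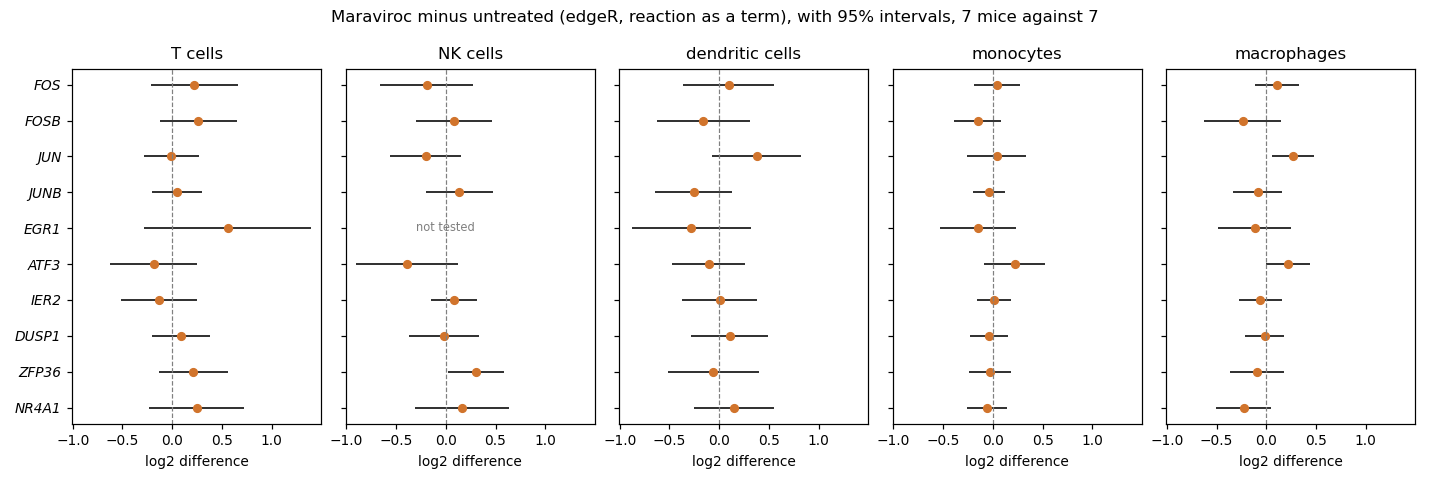
Log2 difference of maraviroc minus untreated for each gene in each class, with 95% intervals (points and lines), from 7 mice against 7 and a fit with the reaction as a term. All intervals except those of JUN and ATF3 in macrophages and ZFP36 in NK cells span 0, and none of the differences passed after adjustment.

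The fitted treatment difference changed sign between the 2 reactions for most of the set in macrophages and monocytes, and for part of it in the other classes. Some differences were small beside their SE, as for FOSB (0.02, SE 0.11) and JUN (0.01, SE 0.22) in monocytes of reaction 2. The 10 genes were read in the same mice, so their signs are not separate observations. In monocytes 7 of 10 genes were lower with maraviroc in reaction 1 and 9 of 10 higher in reaction 2. The sign was the same in both reactions for 2 of 10 genes in macrophages and 4 of 10 in monocytes. It was the same for 6 of 10 in T cells, 5 of 9 in NK cells and 5 of 9 in dendritic cells. Whether classes differed in these counts was not tested, and sign changes were not counted over all genes. In macrophages of reaction 1, 9 of the 10 genes were lower with maraviroc, with JUN the exception, and in reaction 2, 9 were higher, with NR4A1 the exception. Treated and untreated macrophages did not overlap for 2 of the 10 genes in reaction 1, JUN and JUNB, and for 3 in reaction 2, FOS, ATF3 and DUSP1, beside 6.8% and 5.92% of all genes. In each of the other classes at most 1 gene had no overlap within a reaction, and the share of all genes was not counted there. ATF3 in macrophages was at 342, 305 and 293 CPM in the maraviroc mice of reaction 1 and at 359.8, 326, 333 and 328 CPM in its untreated mice. In reaction 2 it was at 321, 421, 350.5 and 437 CPM in maraviroc mice and at 276, 287 and 249 CPM in untreated mice. The groups overlapped in reaction 1 and did not in reaction 2. The log2 differences were -0.09 (SE 0.10) and 0.53 (SE 0.12), and their difference was 0.62 (SE 0.15, unadjusted p = 0.000836, adjusted p = 0.436 by edgeR).

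FOS was at 1073, 984 and 859 CPM with maraviroc and at 946, 1290.3, 1064 and 1049 CPM without it in reaction 1. In reaction 2 it was at 1023, 1045, 1262 and 1268 CPM with maraviroc and at 861, 968 and 898 CPM without it, so that only the groups of reaction 2 stood apart. JUNB lay lower with maraviroc in reaction 1, at 424, 361 and 343 CPM against 495, 591, 439 and 448 CPM, and overlapped in reaction 2. DUSP1 was at 525, 570.1, 599 and 551 CPM with maraviroc against 482, 477 and 503 CPM in reaction 2, with no overlap.

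**Figure D4:**
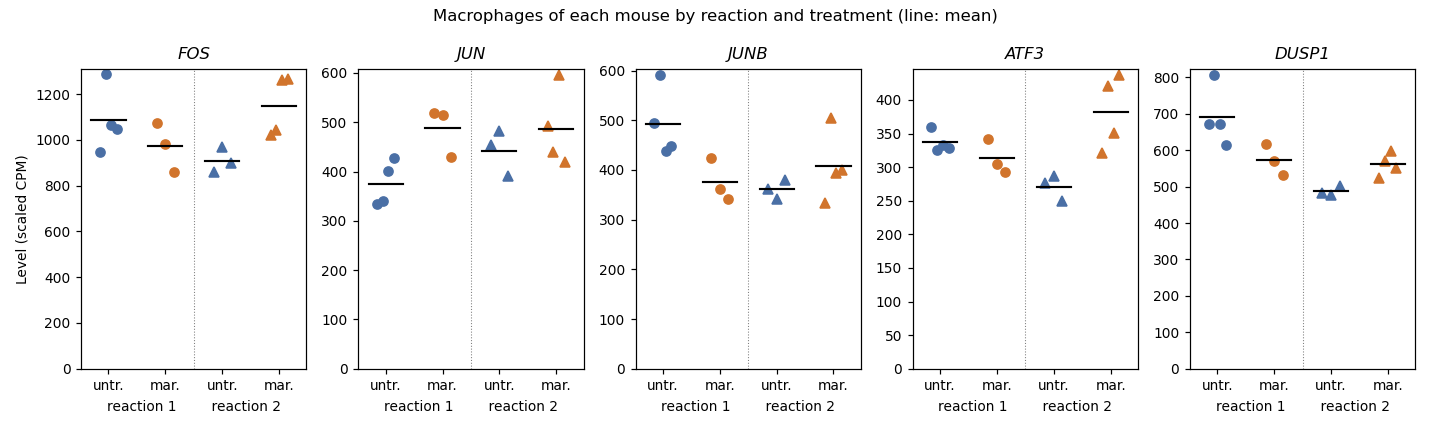
Levels of 5 genes in macrophages in scaled CPM (linear axis from 0), 1 point per mouse, untreated (untr.) and maraviroc (mar.) mice of reaction 1 on the left and reaction 2 on the right, with a line at the mean. ATF3 lay between 321 and 437 CPM in the maraviroc mice of reaction 2, above its untreated mice at 249 to 287 CPM, and the groups overlapped in reaction 1.

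The test of whether the treatment difference differed between the reactions called none of the 10 genes in any class after adjustment. In this test 0% of all genes were called in T, NK and dendritic cells, 0.125% in monocytes and 0.0096% in macrophages. In macrophages, 5 of the 10, ATF3, DUSP1, JUNB, FOS and ZFP36, passed at unadjusted p under 0.05, beside 6.77% of all genes. Untreated mouse 2 of reaction 1 had macrophages far above the other untreated mice for FOSB, EGR1 and NR4A1. Without it, 4 of 10 passed beside 6.33% of all genes, and 8 of 10 genes remained lower with maraviroc in reaction 1. Most log2 differences of reaction 1 were then smaller in size. FOS was at -0.06 against -0.15 with all mice, FOSB at -0.12 against -0.52 and JUNB at -0.28 against -0.38. NR4A1 was at 0.006 against -0.28, while ATF3 was larger in size at -0.11 against -0.09. With maraviroc mouse 1 of reaction 1 left out instead, 6 of 10 passed in macrophages beside 6.32% of all genes. Unadjusted counts in the other classes were 1 of 10 in T cells, 2 of 9 in NK cells, 0 of 10 in dendritic cells and 1 of 10 in monocytes, beside 3.76%, 3.45%, 7.5% and 7.9% of all genes. Without maraviroc mouse 1 of reaction 1, the count in monocytes was 5 of 10 beside 7.99% of all genes, and without untreated mouse 2 it was 2 in both T cells and monocytes and 1 in NK cells.

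In monocytes the feedback list held 3 genes whose treatment difference was called as differing between the reactions, where 0.125% of all genes were called. They were NFKBIA and TNFAIP3, which inhibit NF-kB signalling, and IER3. Their treatment difference in reaction 2 minus that in reaction 1 was, in this order, 1.19 (SE 0.17, adjusted p = 0.0138), 1.36 (SE 0.22, adjusted p = 0.0215) and 1.44 (SE 0.25, adjusted p = 0.0301) on the log2 scale by edgeR. The 10 genes had a median of 0.25 in the same test. The heat shock list went the other way, with a median of -0.49 in monocytes, where 6 of its 10 genes passed at unadjusted p under 0.05 by edgeR and none after adjustment. In macrophages its median was -0.24, with 1 of 10 passing unadjusted, against 0.53 for the 10 genes. The part of this in the treatment differences of the 2 reactions was not tested. The reactions differed in depth and number of cells, and each held its own mice, so reaction and mouse cannot be told apart.

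Levels by reaction differed for few of the 10 genes. ZFP36 in monocytes was at 161 to 274 CPM over the 7 mice of reaction 1 and at 265 to 370.3 CPM over the 7 of reaction 2, a log2 difference of 0.43 with adjusted p = 0.0188 by edgeR, where 6.25% of all genes were called. DUSP1 in macrophages was lower in reaction 2 by 0.33 on the log2 scale (adjusted p = 0.0241), where 15.8% of all genes were called. ATF3 in NK cells was lower by 0.79 (adjusted p = 0.0327), where 19.7% of all genes were called, but this rested on 3 to 42 UMIs per mouse and did not pass among cells with more than 1000 genes (-0.52, adjusted p = 0.153). None was called in T cells or dendritic cells, where 17.1% and 0.0167% of all genes were.

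Whether the set moved together from mouse to mouse was examined for FOS and the other 9 genes within each class, on log2(CPM + 1), with 45 relations over 14 mice. Of these, 41 were positive, 30 of them within both reactions, beside 48.8% of the relations of FOS with all other tested genes over the 5 classes. By class that share was 35.4% in T cells, 44.5% in NK cells, 59.3% in dendritic cells, 63.6% in monocytes and 44.9% in macrophages. In the same order 8, 8, 8, 8 and 9 of the 9 genes were positive. By Pearson 5 of the 45 relations had an adjusted permutation p under 0.05, and by Spearman 1. The adjustment ran over these 45 relations alone. How often other genes reach such a p with FOS, or are positive within both reactions, was not counted, so these counts have no background. FOS and DUSP1 in dendritic cells gave Pearson's r = 0.90 and Spearman's rho = 0.88, with permutation p = 5e-05 and 0.0001 and adjusted p = 0.00225 and 0.0045, and r = 0.93 and 0.73 within reactions 1 and 2. Without the 2 mice farthest from the median of FOS, r was 0.86. In monocytes FOS and DUSP1 gave r = 0.75 (rho = 0.72, adjusted permutation p = 0.0234 and 0.119), and FOS and ZFP36 gave r = 0.70 (rho = 0.61, adjusted permutation p = 0.0432 and 0.153). FOS and ATF3 in monocytes gave r = 0.71 (rho = 0.54, adjusted permutation p = 0.0455 and 0.215), which fell to 0.25 without the 2 farthest mice and so rested on them. FOS and NR4A1 in T cells gave r = 0.69 (rho = 0.68, adjusted permutation p = 0.0432 and 0.134).

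**Figure D5:**
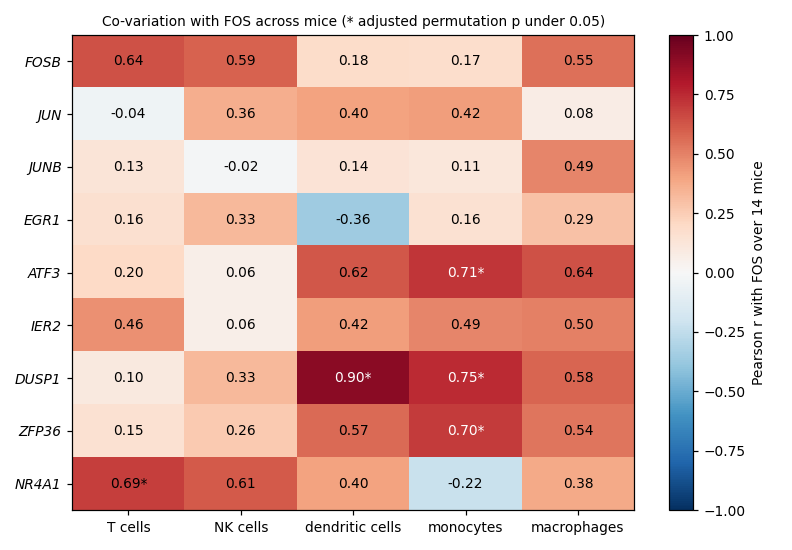
Pearson's r of each gene with FOS over 14 mice in each class, on log2(CPM + 1), with an asterisk where the adjusted permutation p was under 0.05. The marked cells are DUSP1 in dendritic cells (0.90), DUSP1, ATF3 and ZFP36 in monocytes and NR4A1 in T cells, and 41 of 45 values are above 0.

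FOS and JUN, its partner in the dimer, gave r from -0.04 in T cells to 0.42 in monocytes, with no adjusted p under 0.05. Over all 70 sums, centred within class and reaction, ZFP36 followed the mean of the other 9 genes most closely (r = 0.67), FOS was next (0.59), and JUN was lowest (0.22). These sums share mice, so the values are a description.

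By the same measure, the genes outside the set whose pattern was most like its mean, among 4021 with a mean of at least 50 CPM, were KLF6 (r = 0.64), SIK3 (0.64), PPP1R15A (0.63), PNPLA8 (0.62), REL (0.61), NFKBID (0.59), DUSP2 (0.59), GK (0.57), BTG2 (0.57) and GLUD1 (0.56). KLF6 is a zinc finger factor, PPP1R15A a subunit that returns translation after stress, REL a subunit of NF-kB and DUSP2 a phosphatase of the DUSP1 family. KLF6, PPP1R15A, DUSP2 and BTG2 also belong to the fixed lists of related genes.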

How the data were processed

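Droplet 3′ libraries of sorted human CD45+ cells were deposited by the authors as UMI counts per gene and barcode, made with Cell Ranger 9.0.1 against GRCh38. Hashtag counts stood in the same tables, and each mouse's treatment was read from the hashtag names in the feature lists, as the labels name only the reaction. Counts were used as deposited. The members and lists were chosen with earlier results of these data known.

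Hashtags were called with HTODemux in Seurat 5.3.0 (R 4.3.3) at quantile 0.99, which left out hashtag doublets and negatives, and no other doublet caller was run. Of 29120 barcodes in reaction 1, 10631 were called doublets and 5754 negative, against 3380 and 180 of 13582 in reaction 2. The part of doublets that remained in the levels was not tested. Cells with 601 to 6000 genes and a mitochondrial share under 12.5% were kept. Classes were gated on summed marker UMIs, with limits set after marker UMIs were seen and no member gene used. T cells needed at least 3 T cell marker UMIs, NK cells 4, dendritic cells 3, monocytes 4 and macrophages 4, with limits on markers of the other classes, and cells meeting none stayed unclassed. Reaction 1 held 133089612 UMIs in 29120 barcodes and reaction 2 held 175447534 in 13582.

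Counts were summed per class and mouse (133709 to 4999603 UMIs per sum) and tested with edgeR 4.0.16 (quasi-likelihood, TMM, filterByExpr), with terms for reaction and treatment within a class, or class and mouse across classes. All comparisons of classes shared 1 fit and 1 estimate of the spread over the 70 sums, so their p-values do not measure the spread of a single pair. Adjusted p-values are Benjamini-Hochberg over all genes tested. SE is the absolute log2 difference over the square root of F, and 95% intervals are 1.96 SE either way. These intervals are approximate and narrower than the edgeR test implies, so calls rest on the test and not on the intervals. The replicate is the mouse, and small sums rest on few cells. Scaled CPM used 1 TMM scaling over the 70 sums. Since 3′ UMIs do not scale with transcript length but depend on capture, levels were not ranked between genes. Co-variation used 100000 permutations. Named genes were the 10 members, at most 3 genes per fixed list with the lowest p, and the 10 genes most like the mean of the set. Alternatives were DESeq2 1.42.0, RLE size factors, no low-count filter, more than 1000 genes per cell, hashtag quantile 0.999, for treatment only a mitochondrial limit of 7.5% and no reaction term, doubled marker minimum, each reaction by itself and, chosen after seeing the data, no scaling factor and leaving out either of 2 mice. On simulated counts for the macrophage treatment comparison (9227 genes), 187 of 200 genes changed by 1 on the log2 scale were found, with 8 false calls. The treatment differences of the 10 genes in macrophages ran from -0.24 to 0.27, and changes of that size were not simulated. For macrophages minus monocytes (7081 genes) 157 of 200 were found, with 9 false calls. There all classes shared 1 mean profile apart from the 200 changed genes. In the data 62.4% of all genes were called between these classes, so this simulation did not test the scaling between unlike classes.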

Additional observations from a re-analysis of the deposited data

Results flagged for a closer look

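Of 100 groups of 7 mice, 11 held a mouse whose value lay farther from the rest than a Dixon limit allows. For a single group chance gives about 1 in 20. The groups share mice and each holds mice of both reactions, so they are not separate draws and the count is a description. Of the 11, untreated mouse 2 of reaction 1 gave 6. In its T cells, a sum of 23 cells, IER2 was at 449.8 CPM, with the next untreated mouse at 234 CPM, and NR4A1 at 123 CPM, with the next at 53.1 CPM. In its monocytes FOS was low at 719 CPM, with the next at 1174 CPM. In its macrophages FOSB was at 561 CPM, EGR1 at 185 CPM and NR4A1 at 249.7 CPM, with the next at 346, 119 and 174 CPM.

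Maraviroc mouse 1 of reaction 1 gave 4 more, all in T cells, a sum of 45 cells, where FOSB was at 133 CPM, EGR1 at 43.8 CPM (22 UMIs), IER2 at 279 CPM and NR4A1 at 104 CPM. The last was EGR1 at 46.4 CPM (33 UMIs) in dendritic cells of a maraviroc mouse of reaction 2. 

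The set also gave signal in barcodes that no comparison used. Barcodes with at most 600 genes held the 10 genes at 547 CPM in reaction 1 and 539 CPM in reaction 2 (exact 95% Poisson intervals 495 to 604 and 509.6 to 569, counting error only). Kept cells of no class held them at 3067 and 3464 CPM, above the 2984 and 2871 CPM in the classed cells of the same reactions. The classed cells are a mix of classes. Median sums of the 10 genes over mice, in scaled CPM, were 1415 in T cells and 1633 in NK cells. They were 4023 in dendritic cells, 4252 in monocytes and 3830 in macrophages. The part of the mix in this contrast was not tested.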

How the results depend on the processing

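Treated and untreated mice could not be paired, because the hashtag names give only the treatment and mark no link between mice. The mouse numbers used here follow the order of hashtags within treatment and reaction. Classes were compared within the mouse. Of 77 called differences between pairs of classes, none changed direction under the alternatives run for class comparisons, which do not include the mitochondrial limit. No member was called for treatment, or for the difference in treatment between reactions, under the alternatives run for each. JUN, myeloid minus lymphoid, was negative with DESeq2 (-0.049), RLE size factors (-0.052), the stricter hashtag quantile (-0.055), doubled marker minimum (-0.024), reaction 1 by itself (-0.10), no scaling factor (-0.29), and it ranged from -0.025 to 0.044 without either of the 2 mice. FOS, maraviroc minus untreated, turned to 0.24 in NK cells and -0.011 in dendritic cells in reaction 2 by itself, and to -0.15 in macrophages in reaction 1 by itself. Without either mouse it ranged from -0.17 to -0.00222 in dendritic cells and from -0.043 to -0.030 in monocytes. In single reactions, T minus NK cells turned to -0.033 for JUNB (reaction 1) and 0.030 for ATF3 (reaction 2), and monocytes minus macrophages to 0.020 for ZFP36 (reaction 2). Members called between T and NK cells numbered 1 in reaction 1 by itself, against 7, and those called between reactions in NK cells 0 with more than 1000 genes per cell or doubled marker minimum, against 1. The causes were not tested. Without the low-count filter, treatment calls over all genes numbered 125, 9, 222, 23 and 77 in T cells, NK cells, dendritic cells, monocytes and macrophages, against 0, 0, 2, 0 and 0, and with DESeq2 4 in T cells and 9 in dendritic cells. Dendritic sums of 13 to 68 cells limit what could be detected there.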
